A study of Mus musculus with 51 samples.

Results

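Atf4, Ddit3, Atf3, Trib3, Chac1, Asns, Sesn2, Ppp1r15a and Ddit4 are the 9 genes of the integrated stress response described here. They were chosen by symbol, as the rows of the deposited gene table that carry one of these names, and make up 9 symbols among the 40077 rows of that table. The measurements come from 51 bulk RNA-seq libraries of mouse cells and tumors, 16 from cultured cells and 35 from subcutaneous tumors, in which the ubiquitin-activating enzyme Uba1 was depleted, overexpressed or inhibited. Each of the 6 experiments had controls of its own.

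In the integrated stress response, kinases that sense unfolded protein, lack of amino acids, viral RNA or lack of heme phosphorylate the translation factor eIF2, which slows protein synthesis in general while the mRNA of the transcription factor ATF4 is translated more. ATF4 and the factors it induces, among them CHOP (the product of Ddit3) and ATF3, then raise genes of amino acid supply, redox control and feedback on eIF2. Because ATF4 is set largely by translation, its mRNA is one part of the response only. UBA1 starts the ubiquitin cascade by charging E2 enzymes, and ubiquitin-dependent degradation removes misfolded proteins and many short-lived transcription factors.

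Myc-CaP is a prostate cancer cell line derived from mice with a prostate MYC transgene, and B16-BL6 is a melanoma line of C57BL/6 origin. In the inhibitor experiment, Myc-CaP cells were untreated, treated with TAK-243 (an inhibitor of UBA1) at 50 nM for 18 hours, treated with interferon-γ (IFN-γ), or treated with both, with 2 libraries per group. In the sgRNA experiment, Myc-CaP cells carrying a control sgRNA (NC) or an sgRNA to Uba1 (sgUba1) received PBS or IFN-γ, again with 2 libraries per group. The Myc-CaP tumors came in pairs of groups, namely 3 sgNC and 7 sgUba1 tumors, 3 empty vector (EV) and 4 Uba1 overexpressing (Uba1 OE) tumors, and 6 vehicle and 5 TAK-243 tumors, the last given 25 mg/kg intravenously 2 times a week. The B16-BL6 tumors comprised 3 sgNC and 4 sgUba1 tumors. Per the study's methods, depleted lines were sublines grown from single cells with partial loss of UBA1, overexpression was lentiviral, and tumors grew on both flanks of syngeneic mice aged 6 to 8 weeks. The labels do not tie libraries to separate cultures or animals, so the p-values measure the spread between these libraries, which may be technical.

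Library totals ran from 8652097 to 38032395 estimated counts. Uba1 itself followed its label in most experiments: it was lower in sgUba1 than in NC cells (log2 fold change -0.87, adjusted p = 1.0e-08) and in sgUba1 than in sgNC B16-BL6 tumors (-0.92, adjusted p = 7.8e-05), and higher in Uba1 OE than in EV tumors (1.27, adjusted p = 0.0047). In the Myc-CaP sgRNA tumors its mRNA did so in sgUba1 tumors 1 to 3 only. Uba1 measured 319.6, 325 and 337 CPM in the sgNC tumors and 197, 202 and 211 CPM in tumors 1 to 3 labelled sgUba1, but 373, 361, 368 and 383 CPM in tumors 4 to 7 with the same label, above all the sgNC tumors. Results of that comparison are therefore given with and without tumors 4 to 7. Per the study's methods, depletion was judged by Sanger sequencing and immunoblot, and independent sgRNAs to Uba1 were used. The labels do not say which sgRNA a tumor carried. The mRNA level alone does not show whether UBA1 protein was depleted in tumors 4 to 7. Genes that mark other cell types were low in the cultured cells, with a summed level of 2.82 to 11.7 TPM over 10 myeloid markers and 5.44 to 18.8 TPM over 7 fibroblast markers, against 117 to 857 and 113 to 923 TPM in the tumors. In bulk samples, fewer cells of a type and less RNA per cell cannot be told apart, and a tumor value averages cancer, stromal and immune cells. Markers of the named cancers were present, at 10268 to 12233 TPM summed over 7 melanoma markers in the B16-BL6 tumors. In the Myc-CaP cells the sum over 5 prostate epithelial markers was 467 to 1487 TPM, with the lowest sums, 467 to 513 TPM, in the 4 libraries treated with TAK-243. In each cell group only 3 or 4 of these 5 reached 1 TPM in every library. In the untreated, NC, NC with IFN-γ and TAK-243 with IFN-γ cells, 1 of the 5 was at 0 in every library.

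Levels below are CPM (counts relative to a TMM-adjusted library size, within an experiment) when libraries of an experiment are compared, and TPM (a share of all transcripts, which corrects for transcript length) when genes or experiments are set side by side. Changes are log2 fold changes with their standard errors (SE) from edgeR's quasi-likelihood test, adjusted over all genes tested, and a gene is called when its adjusted p is below 0.05. The SE is the size of the change divided by the square root of the test's F statistic. The 95% intervals are normal approximations from that SE. With few libraries such intervals are too narrow, and calls rest on the adjusted p alone. All 9 genes passed the filter on low counts in every comparison.

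In genome build GRCm38 with the GENCODE M21 annotation all 9 genes are protein coding. Atf4 lies at chr15:80255184-80257541 (+), Ddit3 at chr10:127290774-127296288 (+) and Atf3 at chr1:191170296-191218039 (-). Ppp1r15a lies at chr7:45522916-45526268 (-), Trib3 at chr2:152337422-152344032 (-) and Chac1 at chr2:119351229-119354381 (+). Asns lies at chr6:7675169-7693254 (-), Sesn2 at chr4:132492032-132510501 (-) and Ddit4 at chr10:59949669-59951834 (-). A second annotated Ddit3 entry overlaps the first on the same strand and held 79 counts in all 51 libraries, against 17736 for the entry used. On the opposite strand, Mars and Gm4189 overlap Ddit3, Tulp2 overlaps Ppp1r15a and Gm24748 overlaps Atf3. Gm12981 overlaps Sesn2 on the same strand. Whether the counting used strand is not given in the sources used here. Without strand, reads of the opposite-strand pairs cannot be told apart. Levels of Gm4189, Gm24748 and Gm12981 are not given here. In the cells Mars1 measured 67.2 to 209 CPM and fell under TAK-243 (log2 fold change -1.29), and Tulp2 measured 0 to 0.0704 CPM.

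Promoters are shown for the genes whose transcripts moved most in the cells or that hold a motif for the factors named above. ATF4 and C/EBP factors bind composite elements with the core TGATGNAA, and the window from 250 bases before to 50 bases after the RefSeq start was searched for it on both strands. It was found in 4 of the 9 genes (Atf3, Trib3, Chac1 and Asns) and in 3.97% of 32851 promoters of the same length. The cyclic AMP response element TGACGTCA, a palindrome bound by ATF and CREB factors and looked for after these sequences had been read, was found in 1 of the 9 (Ppp1r15a) and in 1.79% of promoters. Neither set of letters was in the window of Ddit3. A match is a description of letters and not evidence of binding. The sequences below are from RefSeq on GRCm38.p6, 5′ to 3′ on the strand of the gene, with a motif match in capitals. The windows are chr10:127290543-127290792 (+) for Ddit3, chr1:191183334-191183583 (-) for Atf3, chr2:119350992-119351241 (+) for Chac1, chr6:7693210-7693459 (-) for Asns and chr7:45526269-45526518 (-) for Ppp1r15a, each the 250 bases before the start. For Trib3, whose match begins at base 15 after the start, only the 30 bases at chr2:152344028-152344057 (-) are printed.
Ddit3: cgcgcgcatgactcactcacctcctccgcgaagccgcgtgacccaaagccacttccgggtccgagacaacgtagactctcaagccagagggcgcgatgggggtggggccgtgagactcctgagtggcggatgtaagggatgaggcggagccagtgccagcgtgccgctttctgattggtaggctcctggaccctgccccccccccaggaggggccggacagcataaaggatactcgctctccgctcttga
Atf3: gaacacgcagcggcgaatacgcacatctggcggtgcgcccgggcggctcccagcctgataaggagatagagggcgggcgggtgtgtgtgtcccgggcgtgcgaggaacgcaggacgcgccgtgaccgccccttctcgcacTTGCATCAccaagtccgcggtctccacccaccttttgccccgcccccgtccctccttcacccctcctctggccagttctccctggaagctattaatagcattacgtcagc
Trib3: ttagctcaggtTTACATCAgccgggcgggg
Chac1: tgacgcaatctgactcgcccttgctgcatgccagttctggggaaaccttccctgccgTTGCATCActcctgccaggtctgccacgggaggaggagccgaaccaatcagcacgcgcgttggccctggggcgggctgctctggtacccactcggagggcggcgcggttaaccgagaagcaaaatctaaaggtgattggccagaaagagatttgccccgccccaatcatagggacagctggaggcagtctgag
Asns: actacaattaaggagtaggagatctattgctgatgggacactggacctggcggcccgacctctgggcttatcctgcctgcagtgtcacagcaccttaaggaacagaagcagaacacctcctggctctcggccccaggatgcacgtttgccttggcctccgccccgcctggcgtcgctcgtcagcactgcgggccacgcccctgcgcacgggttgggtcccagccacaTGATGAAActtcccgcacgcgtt
Ppp1r15a: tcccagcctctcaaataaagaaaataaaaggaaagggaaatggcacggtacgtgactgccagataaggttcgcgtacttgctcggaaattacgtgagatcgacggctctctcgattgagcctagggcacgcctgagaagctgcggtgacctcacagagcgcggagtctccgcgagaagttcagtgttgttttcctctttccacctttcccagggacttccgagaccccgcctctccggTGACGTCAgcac

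The first question was how the response genes differ when UBA1 is inhibited in cultured Myc-CaP cells. TAK-243 raised Ddit3, Atf3, Ppp1r15a, Trib3 and Sesn2 and lowered Asns and Chac1, while Atf4 and Ddit4 did not pass the test. Thus 5 of the 9 genes were called higher and 2 lower, in a comparison in which 32.4% of the 14551 genes tested were called higher and 34% lower. The counts alone do not set these genes apart from so broad a change. The median log2 fold change was 0.34 over the 9 genes and 0.03 over all genes. The size of the 3 largest rises ranked 181 (Ddit3), 253 (Atf3) and 321 (Ppp1r15a) from the top of the 14551.

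Among the transcription factors, Atf4 measured 269.5 and 264 CPM in untreated cells and 284 and 272 CPM with TAK-243. The treated libraries were both above the untreated ones but by little, and the log2 fold change of 0.06 (95% interval -0.003 to 0.12, adjusted p = 0.095) was not called. Ddit3, which encodes the pro-apoptotic factor CHOP, measured 1.92 and 1.87 CPM untreated and 27.8 and 27.7 CPM with TAK-243. The groups lay far apart, 14.6-fold (log2 fold change 3.87, SE 0.15, adjusted p = 4.2e-33). Per transcript length, the untreated Ddit3 level (4.51 TPM) was the lowest of the 9 genes, and Ddit3 had at least 30 estimated counts in every library of the series. Atf3, a stress-induced factor of the ATF family, measured 7.79 and 6.99 CPM untreated against 74.7 and 71.4 CPM treated, a 9.89-fold rise (log2 fold change 3.31, SE 0.09, adjusted p = 2.3e-41).

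Of the genes that feed back on the response, Ppp1r15a encodes GADD34, the subunit that directs protein phosphatase 1 to eIF2. It measured 16.98 and 20.04 CPM in untreated cells and 138 and 130.3 CPM with TAK-243, a 7.26-fold rise (log2 fold change 2.86, SE 0.06, adjusted p = 4.1e-46). Trib3, a pseudokinase that binds ATF4 and restrains it, rose from 8.81 and 9.74 CPM to 17.3 and 15.1 CPM (log2 fold change 0.81, SE 0.13, adjusted p = 1.2e-07). In both genes the treated libraries were above the untreated ones without overlap, although the change in Trib3 was small beside that of Ppp1r15a.

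The metabolic genes went the other way. Asns, which makes asparagine and has a match to the ATF4 core in its promoter window, measured 319 and 326 CPM untreated and 219 and 216 CPM with TAK-243 (log2 fold change -0.57, SE 0.03, adjusted p = 1.5e-24). Chac1, which breaks down glutathione, measured 15.8 and 14.4 CPM untreated and 10.2 and 10.99 CPM treated (log2 fold change -0.52, SE 0.12, adjusted p = 0.00015). The treated libraries of both genes lay below both untreated libraries. Of the 2 genes that restrain mTORC1, Sesn2 rose from 17.7 and 20.9 CPM to 25.5 and 23.4 CPM (log2 fold change 0.34, SE 0.10, adjusted p = 0.0015), and Ddit4 measured 29.0 and 25.8 CPM untreated and 29.4 and 29.7 CPM treated (log2 fold change 0.11, 95% interval -0.06 to 0.28, adjusted p = 0.28). The Sesn2 call was lost without untreated library 1 (adjusted p = 0.086) or without TAK-243 library 1 (adjusted p = 0.12).

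**Figure D1:**
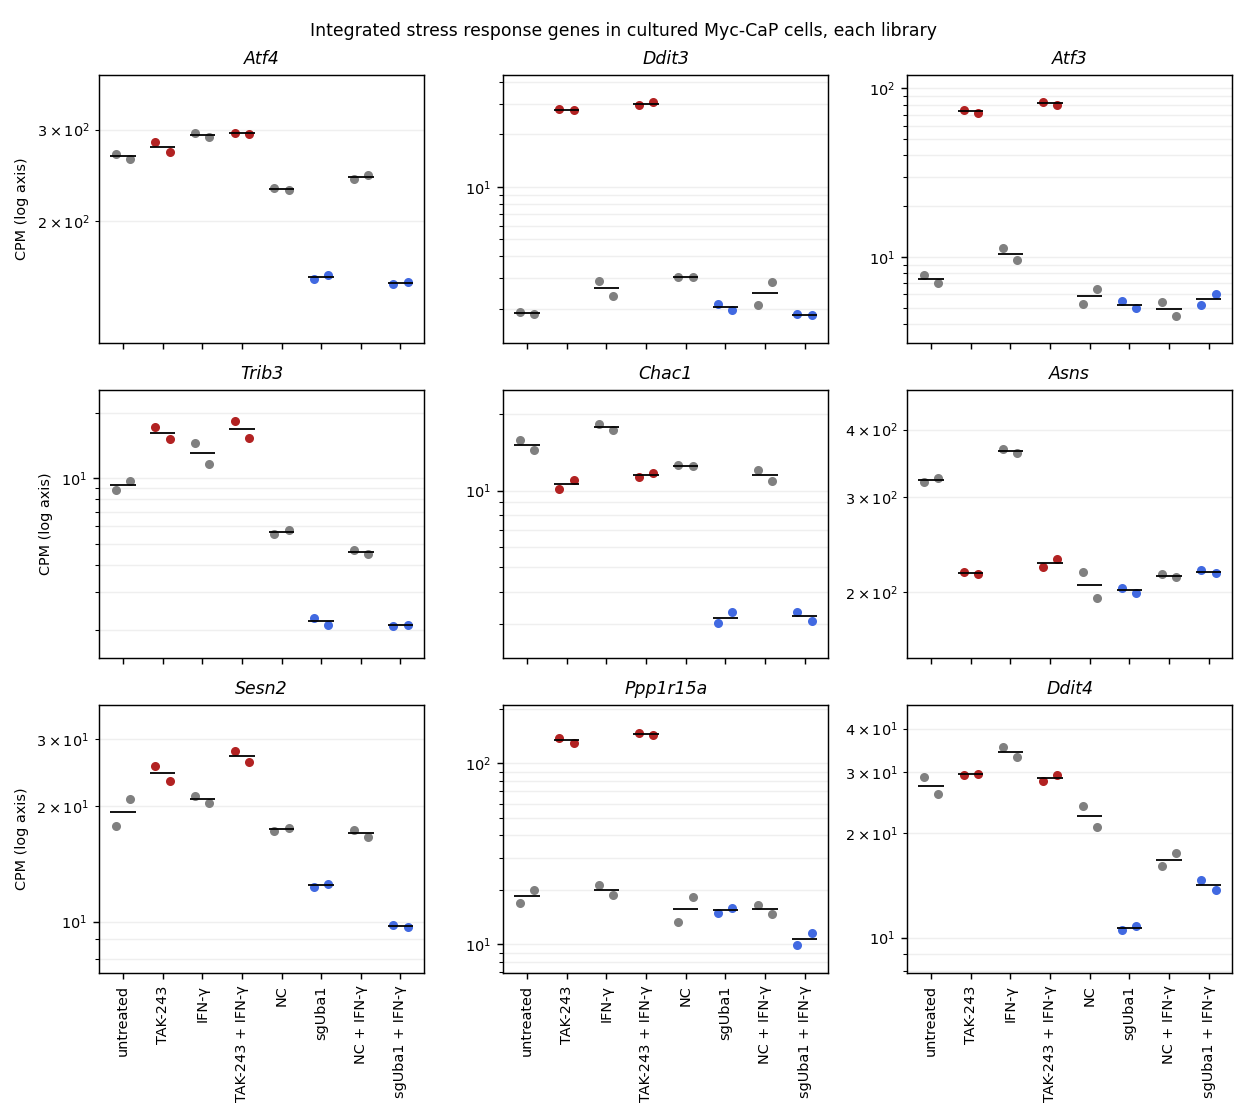
Level of each of the 9 genes in the 16 cultured Myc-CaP libraries, in CPM on a log axis, with 1 point per library and a bar at the group mean (grey, controls and IFN-γ alone; red, TAK-243; blue, sgUba1). Ddit3, Atf3 and Ppp1r15a stand apart in the 4 TAK-243 libraries, while Chac1 and Trib3 are lowest in the 4 sgUba1 libraries.

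With IFN-γ in both arms, TAK-243 was compared with untreated cells again, using other libraries. Here 5 genes were called higher and 3 lower, against 32.1% and 36.2% of all genes. Ddit3 measured 2.89 and 2.36 CPM with IFN-γ alone and 29.5 and 30.6 CPM with both agents (log2 fold change 3.52, SE 0.14, adjusted p = 1.6e-32). The treated libraries again stood far above, and the same held for Atf3 (log2 fold change 2.97) and Ppp1r15a (2.87). Sesn2 (0.37) and Trib3 (0.36) were called higher, and Asns (-0.69), Chac1 (-0.62) and Ddit4 (-0.24) lower. Atf4 measured 296 and 291 CPM with IFN-γ alone and 296 and 294 CPM with both, so that its groups overlapped (log2 fold change 0.01, 95% interval -0.05 to 0.07). The calls of Trib3 and Ddit4 were lost with DESeq2 (adjusted p = 0.11 and 0.12). Trib3 was also lost without IFN-γ library 2 (0.26) or TAK-243 with IFN-γ library 1 (0.19), and Ddit4 without IFN-γ library 1 (0.081) or TAK-243 with IFN-γ library 1 (0.064).

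IFN-γ alone raised 5 of the 9 genes over untreated cells by small amounts, where 20.1% of all genes were called higher. The genes were Atf3 and Trib3 (both log2 fold change 0.49), Ddit4 (0.32), Asns (0.18) and Atf4 (0.14), and Ddit3 (0.46), Chac1 (0.23), Sesn2 (0.11) and Ppp1r15a (0.11) were not called. In mean TPM, Atf3, Trib3 and Ddit4 were also higher with IFN-γ, but Atf4 and Asns were lower. Atf4 measured 238 to 243 TPM with IFN-γ and 255 to 258 TPM untreated, and Asns averaged 268 and 274 TPM. The direction of the Atf4 and Asns changes thus depended on the measure. This comparison shares its untreated libraries with the first one. Without IFN-γ library 1, Atf3 (adjusted p = 0.065) and Trib3 (0.16) lost their calls, Trib3 with DESeq2 as well (0.052), and Ddit4 without untreated library 2 (0.10). Whether IFN-γ changed the TAK-243 effect was tested by the interaction, which called none of the 9 genes, while 3.08% of all genes were called by edgeR. Unadjusted edgeR p was below 0.05 for 4 of the 9 and for 2205 of the 14551 genes tested. DESeq2 called none of the 9. The largest of these 4 interaction terms were Trib3 at -0.45 (95% interval -0.80 to -0.10) and Ddit4 at -0.35 (-0.58 to -0.11).

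The second question was whether partial depletion of Uba1 by sgRNA moved these genes. Depleted lines were sublines grown from single cells, per the study's methods, so that subline and depletion cannot be told apart. Of the 9 genes 6 were called lower in sgUba1 than in NC cells and none higher, with 13.8% of 15530 genes called lower. The median log2 fold change was -0.56 over the 9 genes and 0.00 over all genes. Chac1 measured 12.6 and 12.5 CPM in NC cells and 3.02 and 3.33 CPM in sgUba1 cells (log2 fold change -1.98, SE 0.12, adjusted p = 2.8e-08). The sgUba1 libraries stood at 0.254 times the NC level, a fall that ranked 52 from the bottom of all genes. Trib3 measured 5.53 and 5.75 CPM in NC and 2.28 and 2.12 CPM in sgUba1 cells (log2 fold change -1.36, SE 0.15, adjusted p = 1.4e-05). Ddit4, whose product REDD1 restrains mTORC1, measured 23.9 and 20.9 CPM in NC and 10.5 and 10.8 CPM in sgUba1 cells (log2 fold change -1.07, SE 0.09, adjusted p = 1.1e-06). For each of these genes the groups were separate.

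Atf4 itself fell from 231 and 230.0 CPM in NC to 155 and 158 CPM in sgUba1 cells (log2 fold change -0.56, SE 0.05, adjusted p = 7.1e-07). Sesn2 fell from 17.3 and 17.5 CPM to 12.3 and 12.6 CPM (log2 fold change -0.49, SE 0.08, adjusted p = 0.00026). Ddit3 was at 3.06 and 3.04 CPM in NC and 2.14 and 1.97 CPM in sgUba1 cells, a low level at which its fall (log2 fold change -0.57, SE 0.19, adjusted p = 0.041) was near the threshold. That call was lost with DESeq2 (adjusted p = 0.18), with only the compared groups in the fit (0.054), and in the fits without either NC library, either sgUba1 library or either sgUba1 library with IFN-γ (0.053 to 0.18). Asns measured 218 and 195 CPM in NC and 204 and 199 CPM in sgUba1 cells, with overlapping groups (log2 fold change -0.04, 95% interval -0.14 to 0.07). Without NC library 2 it was called lower by 0.11 (adjusted p = 0.037). Atf3 (-0.18) and Ppp1r15a (-0.03) also overlapped and were not called.

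With IFN-γ in both arms, 6 genes were called lower in sgUba1 cells, where 22.6% of all genes were. They were Chac1 (log2 fold change -1.84), Trib3 (-1.12), Sesn2 (-0.80), Atf4 (-0.68), Ppp1r15a (-0.54) and Ddit4 (-0.24), while Ddit3 (-0.42), Atf3 (0.19) and Asns (0.02) were not called. Sesn2 measured 17.3 and 16.7 CPM in NC cells with IFN-γ and 9.78 and 9.68 CPM in sgUba1 cells with IFN-γ, with no overlap. Ppp1r15a lost its call without NC library 1 with IFN-γ (adjusted p = 0.069) or sgUba1 library 1 with IFN-γ (0.12). Ddit4 lost it with DESeq2 (0.16) and in each of 6 fits without 1 library, namely either NC library with IFN-γ and each of the 4 sgUba1 libraries (0.053 to 0.34).

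Ddit4 was the gene whose sgUba1 effect differed with IFN-γ. In NC cells it measured 23.9 and 20.9 CPM with PBS and 16.03 and 17.5 CPM with IFN-γ, and in sgUba1 cells 10.5 and 10.8 CPM with PBS and 14.6 and 13.7 CPM with IFN-γ. IFN-γ libraries were thus lower in NC cells and higher in sgUba1 cells. The interaction was 0.82 (SE 0.13, adjusted p = 0.0056), 1 of the 9 genes in a test that called 0.927% of genes higher. In NC cells alone, IFN-γ lowered Ddit4 (log2 fold change -0.41, adjusted p = 0.020), again 1 of the 9 with 0.998% of genes called lower. The interaction lost its call without NC library 1 with IFN-γ (adjusted p = 0.065), sgUba1 library 1 (0.054) or sgUba1 library 1 with IFN-γ (0.060), and the NC effect without either NC library with IFN-γ (0.25 and 0.11) or with only the compared groups in the fit (0.15). The interaction of Ppp1r15a was -0.50 (adjusted p = 0.15), and was called with no filter on low counts (adjusted p = 0.038) and without NC library 2 (0.00028).

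The TAK-243 and sgUba1 effects were then compared directly in 1 fit over the 16 cell libraries, as the TAK-243 effect over untreated cells minus the sgUba1 effect over NC cells, both without IFN-γ. All 9 genes differed: 8 were called higher under TAK-243 than under the sgRNA, where 25.3% of 15708 genes were, and Asns lower, where 30.3% were. The difference was 4.41 (SE 0.24) for Ddit3, 3.47 (SE 0.17) for Atf3 and 2.87 (SE 0.18) for Ppp1r15a. It was 2.15 for Trib3, 1.44 for Chac1, 1.15 for Ddit4, 0.81 for Sesn2 and 0.60 for Atf4, and -0.56 for Asns. The largest adjusted p among the 9 was 3.0e-06, for Sesn2. Trib3 and Sesn2 rose under the inhibitor and fell with the sgRNA, while Chac1 fell under both, more with the sgRNA. The 2 experiments were separate and differ in exposure time, in the degree of UBA1 loss and in the use of a single-cell subline, which cannot be told apart here. Uba1 mRNA rose with TAK-243 (log2 fold change 0.37) and fell with the sgRNA.

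**Figure D2:**
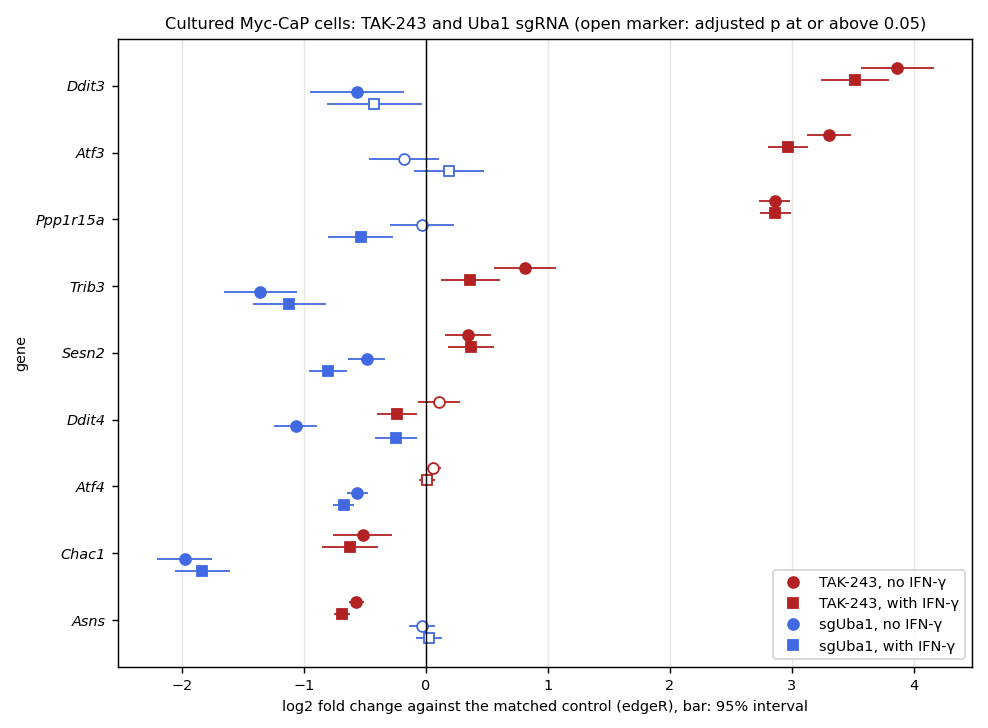
Log2 fold change of each gene in cultured Myc-CaP cells under TAK-243 (red) and sgUba1 (blue), without IFN-γ (circles) and with it (squares), with approximate 95% intervals from the SE. Filled markers were called; Ddit3, Atf3 and Ppp1r15a lie at 2.86 or above under TAK-243, and Chac1 and Trib3 lie farthest to the left under sgUba1.

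Genes around the 9 were followed by lists. Of 20 genes of amino acid supply under ATF4, TAK-243 lowered 18 and raised 0, as it lowered Asns, with a median log2 fold change of -0.72. Over all genes in this comparison 32.4% were higher and 34% lower, and every list count below stands against these shares. Aldh1l2 (-2.42), a mitochondrial folate enzyme, Slc7a11 (-1.99), the cystine transporter, and Cth (-1.96), which makes cysteine, fell most. Of 13 genes of aminoacyl-tRNA synthesis and export, 11 were lower and 2 higher, led by Mars1 (-1.29) and Eprs (-1.02), while Cars rose by 0.25. Of 10 other tested targets of ATF4 and CHOP, 4 were higher, among them Bbc3 (1.9996), which encodes the pro-apoptotic PUMA, Nupr1 (1.38) and the death receptor Tnfrsf10b (1.20), and 5 lower, among them Atf5 (-1.15) and Cebpg (-1.08). Among the 15 genes of eIF2 control, 4 were higher and 9 lower, with Eif2ak3, the kinase PERK, at 0.27. Of 16 ATF6 and XBP1 targets, which serve the unfolded protein response of the endoplasmic reticulum, 6 were higher (Dnajb9 1.40, the chaperone Hspa5 0.93) and 8 lower (Sdf2l1 -1.06). The 10 immediate early genes were all called higher, with a median of 2.46 and Egr1 (7.10) and Fos (5.01) at the top. Of 10 p53 targets 5 were higher and 4 lower, and of 8 tested hypoxia genes 2 were higher and 3 lower.

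In sgUba1 cells the amino acid list was lower as well, with 13 of 20 called lower, 1 higher (Slc7a3, 1.18) and a median of -0.27, where 16.7% of all genes were higher and 13.8% lower. Aldh1l2 (-1.98) and Slc7a11 (-1.42) again fell most. Of the 13 tRNA synthesis genes 8 were lower, led by Cars (-0.85), and 1 higher. Of 11 other ATF4 and CHOP targets 6 were lower, among them Vegfa (-1.18) and the oxidase Ero1l (-0.99), and 2 higher. The hypoxia genes stood at 8 of 9 lower and 0 higher, including the peptide hormone gene Adm (-2.44) and the mitophagy receptor Bnip3 (-1.35). Ddit4 is itself a known hypoxia-induced gene, and the part of hypoxia in its values was not tested. The eIF2 control list had 6 higher and 4 lower, the ATF6 and XBP1 targets 6 higher and 2 lower, the p53 targets 4 higher and 1 lower, and the immediate early genes 2 higher and 4 lower.

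**Figure D3:**
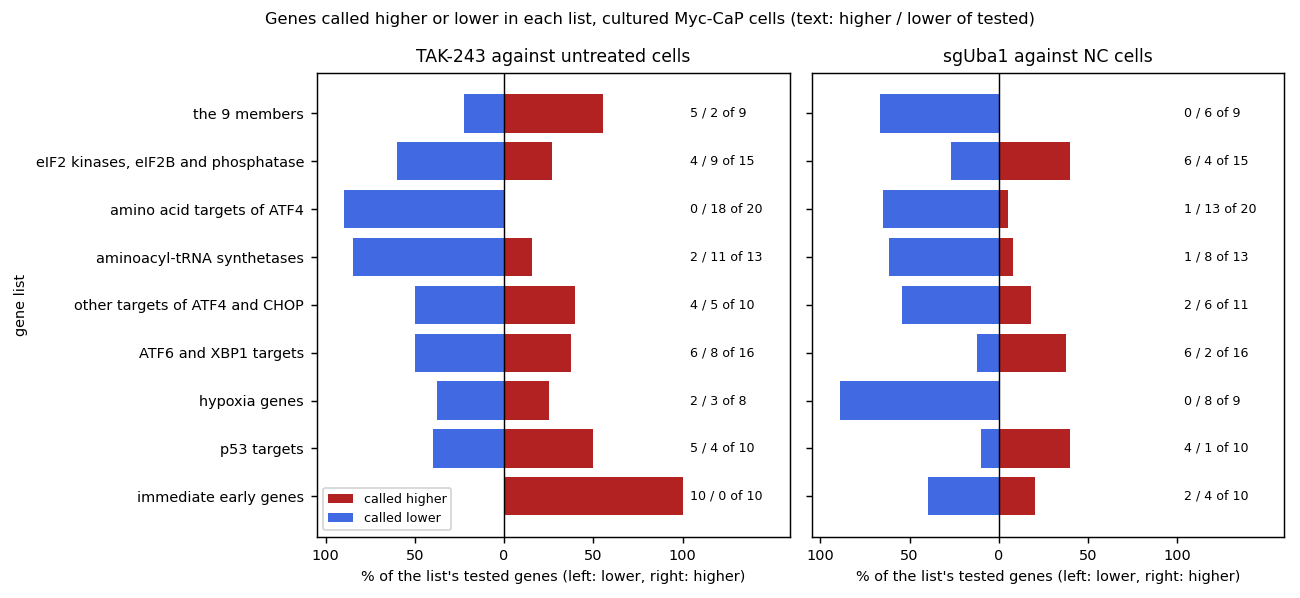
Percent of the tested genes of each list called higher (red, right) or lower (blue, left) under TAK-243 and under sgUba1 in cultured Myc-CaP cells without IFN-γ. The amino acid targets of ATF4 are mostly lower in both, with 18 and 13 of 20, while the immediate early genes are all higher under TAK-243 and split under sgUba1.

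In tumors none of the 9 genes was called by edgeR in any of the 4 comparisons, with all labelled tumors in the fits. The closest were in the Myc-CaP sgRNA tumors, where 2.99% of 16202 genes were called. An unadjusted edgeR p below 0.05 was found for 3817 of these 16202 genes and for 4 of the 9 (Atf3, Trib3, Chac1 and Asns). DESeq2 called 3 of them there (Trib3 adjusted p = 0.0089, Atf3 0.017, Chac1 0.043). Trib3 measured 8.33, 22.0 and 6.83 CPM in sgNC tumors and 1.78, 2.80, 3.47, 4.13, 4.81, 5.62 and 6.44 CPM in sgUba1 tumors. All sgUba1 tumors lay below all sgNC tumors, with the highest value in sgNC tumor 2 (log2 fold change -1.57, SE 0.41, adjusted p = 0.064 by edgeR). Chac1 measured 10.1, 18.8 and 12.3 CPM in sgNC tumors and 2.51 to 9.75 CPM with a median of 7.08 CPM in sgUba1 tumors, also without overlap (log2 fold change -1.20, SE 0.39, adjusted p = 0.11).

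Atf3, Atf4 and Asns divided the sgUba1 tumors along the same line as Uba1. Atf3 measured 24.4, 12.1 and 18.4 CPM in sgNC tumors, 14.3, 22.7 and 47.7 CPM in sgUba1 tumors 1 to 3, and 72.8, 97.7, 61.6 and 94.2 CPM in tumors 4 to 7. Tumors 4 to 7 were the highest for Atf3, and the log2 fold change over all 7 was 1.68 (SE 0.57, adjusted p = 0.12). Atf4 measured 152, 144 and 130.2 CPM in sgNC tumors, 74.1, 91.1 and 84.1 CPM in sgUba1 tumors 1 to 3, and 131, 156, 156 and 143 CPM in tumors 4 to 7. Tumors 1 to 3 lay below every other tumor, whereas tumors 4 to 7 overlapped the sgNC tumors. Asns showed the opposite split, at 157, 169 and 138 CPM in sgNC tumors, 131, 140.3 and 142 CPM in tumors 1 to 3, and 72.3, 83.0, 80.8 and 81.6 CPM in tumors 4 to 7. These groups within a label are described by their numbers and were not tested against each other. The line was drawn after the values were seen. The share of all genes that divide along it was not counted, so the division is not shown to be particular to these genes.

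**Figure D4:**
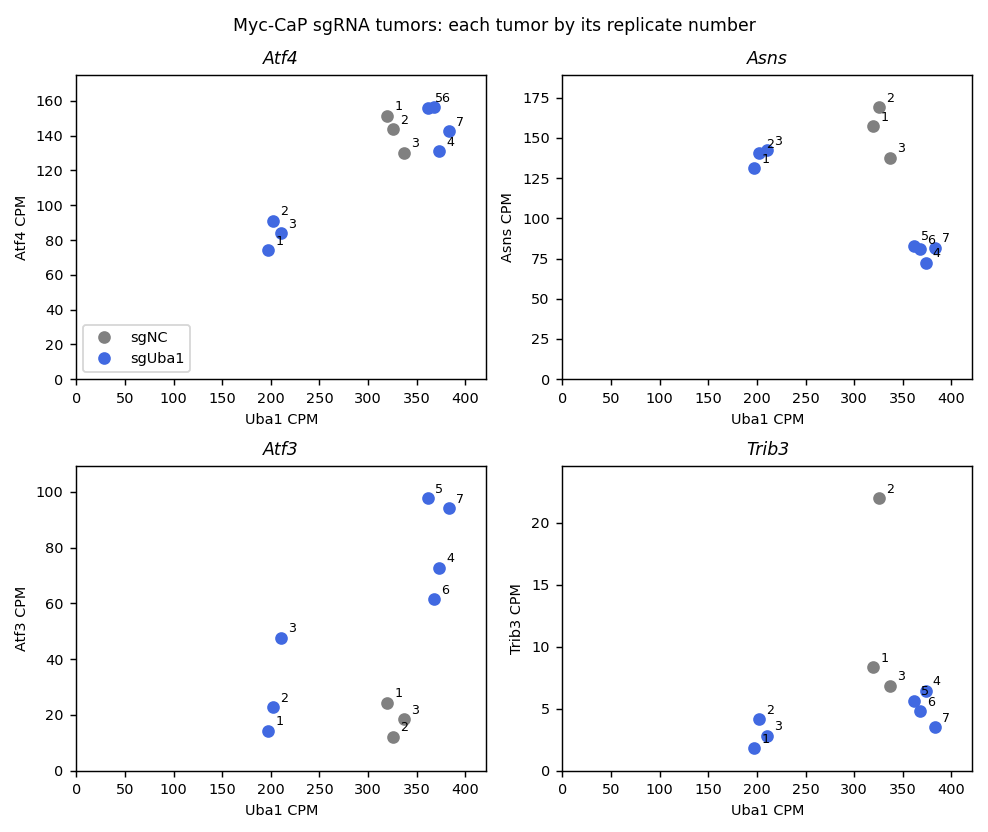
CPM of Atf4, Asns, Atf3 and Trib3 against CPM of Uba1 in the 10 Myc-CaP sgRNA tumors, with 1 point per tumor marked by its replicate number (grey, sgNC; blue, sgUba1). Tumors 4 to 7 labelled sgUba1 lie to the right of the sgNC tumors for Uba1, with Atf3 at 61.6 to 97.7 CPM and Asns at 72.3 to 83.0 CPM.

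Without tumors 4 to 7, 1 of 15679 genes was called (0.00638%) and it was none of the 9, 3 of which had an unadjusted p below 0.05. The share of all genes at that unadjusted level was not counted in this subset. DESeq2 was not run on this subset. Atf4 had a log2 fold change of -0.78 (SE 0.11, adjusted p = 0.095), Trib3 -2.08 (SE 0.54, adjusted p = 0.15) and Chac1 -1.71 (SE 0.44, adjusted p = 0.15), and Uba1 -0.69 (adjusted p = 0.095). Atf3 fell back to 0.62 (SE 0.47) and Asns to -0.17 (SE 0.10). The values of Atf4 and Asns over all 7 sgUba1 tumors were -0.25 and -0.57, so that both depended on which tumors entered. Over all 7 sgUba1 tumors, where 1.85% of all genes were called lower and 1.14% higher, 6 of the 20 amino acid genes were called lower (Aldh1l2 -2.47, Cth -1.45, Slc7a11 -1.40), 3 of the 13 tRNA synthesis genes (Cars -0.996) and 2 of 12 other ATF4 and CHOP targets (Cebpg -0.86, Eif4ebp1 -0.60), with none higher. None of these 11 calls held without tumors 4 to 7, or without sgNC tumor 2, where 10 genes were called in place of 485; the median of the amino acid list was -0.33 over all tumors, -0.49 without tumors 4 to 7 and -0.23 without sgNC tumor 2.

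The other members were not called in the Myc-CaP sgRNA tumors either. Their log2 fold changes were -0.23 for Ddit3 (95% interval -0.56 to 0.10), -0.27 for Sesn2 (-0.59 to 0.05), -0.02 for Ppp1r15a (-0.44 to 0.40) and -0.25 for Ddit4 (-0.80 to 0.30). Marker sums of other cells differed between these tumors. The myeloid marker sum was 287 to 510 TPM in the sgNC and 486 to 857 TPM in the sgUba1 tumors, with 4 of 9 tested myeloid markers called higher (none of them without sgNC tumor 2 or without tumors 4 to 7), and the fibroblast sum was 219 to 431 and 268 to 923 TPM. The T and NK sum was 8.65 to 9.91 TPM in the sgNC and 11.4 to 21.7 TPM in the sgUba1 tumors, without overlap. It was 1.71 to 7.13 TPM in the cultured cells, and only 1 or 2 of its 8 genes reached 1 TPM in every tumor of a group. In sgNC tumor 2, the highest tumor for Trib3 and Chac1, the prostate epithelial sum was 1089 TPM, against 2106 and 2329 TPM in the other sgNC tumors. The part of these cells in the 9 genes was not tested.

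In the B16-BL6 tumors, where Uba1 followed its label in each tumor, none of the 9 genes was called and none had an unadjusted p below 0.05, with 0.895% of 17539 genes called by edgeR and 2844 at that unadjusted level. DESeq2 also called none, while with the replicate number as a block Ddit3 was called lower (log2 fold change -0.49, adjusted p = 0.044). Ddit3 measured 46.5, 49.6 and 43.7 CPM in sgNC tumors and 30.2, 41.6, 48.8 and 28.8 CPM in sgUba1 tumors, with overlap (log2 fold change -0.32, 95% interval -0.68 to 0.04). Atf4 measured 287, 251 and 257 CPM in sgNC tumors and 229, 257, 243 and 233 CPM in sgUba1 tumors, also with overlap. Its log2 fold change was -0.14 (approximate 95% interval -0.28 to -0.002, unadjusted p = 0.072 and adjusted p = 0.35 by edgeR). That interval is narrower than the test implies. Chac1 had a log2 fold change of -0.04 (95% interval -0.42 to 0.35) and Trib3 of 0.06 (-0.42 to 0.53), intervals that do not include the falls measured in cultured sgUba1 Myc-CaP cells. The 2 lines and settings were not compared in 1 test. Ddit4 ranged from 30.5 CPM in sgUba1 tumor 4 to 113 CPM in sgUba1 tumor 3, around sgNC values of 74.2 to 80.0 CPM (log2 fold change -0.14, 95% interval -0.97 to 0.70). The remaining members were Ppp1r15a at -0.32 (-0.65 to 0.01), Sesn2 at -0.15 (-0.49 to 0.18), Atf3 at 0.10 (-0.57 to 0.77) and Asns at -0.04 (-0.24 to 0.15).

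In Uba1 OE tumors, where 0.00673% of 14853 genes (1 gene) were called by edgeR, none of the 9 was called by edgeR or DESeq2. An unadjusted edgeR p below 0.05 was found for 4 of the 9 and for 2679 of the 14853. Chac1 measured 9.51, 3.62 and 5.93 CPM in EV tumors and 48.3, 11.9, 14.0 and 8.57 CPM in Uba1 OE tumors (log2 fold change 1.70, SE 0.65, adjusted p = 0.24). Sesn2 measured 19.9, 17.0 and 14.5 CPM in EV tumors and 50.0, 22.9, 26.4 and 23.6 CPM in Uba1 OE tumors, higher without overlap (log2 fold change 0.84, SE 0.29, adjusted p = 0.21). Uba1 OE tumor 1 was the highest tumor of the comparison for Atf4 (374 CPM, others 129 to 184), Chac1, Asns, Sesn2 and Trib3. With it the log2 fold changes were 0.64 for Atf4, 0.49 for Asns and 1.23 for Trib3, and without it they were 0.25 for Atf4, 0.86 for Chac1, 0.09 for Asns, 0.51 for Sesn2 and 0.89 for Trib3. Atf3 stood at -0.13, Ppp1r15a at 0.01 and Ddit4 at -0.20. Uba1 OE tumor 1 also had the highest sum of skeletal muscle markers of the series, 389.9 TPM, and a myeloid sum of 125.6 TPM against 394 to 492 TPM in the EV tumors. The next highest muscle sum was 349.6 TPM, in vehicle tumor 6. Among the vehicle tumors, tumor 6 was the lowest for Atf4 (125 CPM), Chac1 (7.06), Asns (86.0), Sesn2 (19.2) and Trib3 (6.34). Over all tumors the T and NK sum was 4.33 to 8.01 TPM with Uba1 OE and 12.9 to 17.8 TPM with EV, and the prostate epithelial sum 1459.6 to 2037 and 2202 to 2541 TPM, both without overlap. The Uba1 OE values of the T and NK sum overlap those of the cultured cells (1.71 to 7.13 TPM). The part of these cells in the values of the 9 genes was not tested. Ddit3 went the other way, at 15.96, 10.9 and 17.9 CPM in EV and 9.12, 7.02, 10.8 and 9.74 CPM in Uba1 OE tumors, lower without overlap (log2 fold change -0.70, SE 0.21, adjusted p = 0.17).

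In tumors of mice given TAK-243, none of the 9 genes was called by edgeR or DESeq2, none had an unadjusted p below 0.05, and 0.145% of 17299 genes were called by edgeR, with 2590 at that unadjusted level. Ddit3 ranged from 6.79 to 22.1 CPM with a median of 13.6 CPM in vehicle tumors, and measured 9.90, 12.7, 12.0, 13.3 and 20.2 CPM in TAK-243 tumors. The groups overlapped throughout, and the log2 fold change of -0.02 had a 95% interval of -0.51 to 0.48. Atf3 ranged from 19.7 to 65.9 CPM with a median of 29.1 CPM in vehicle tumors and measured 14.6, 23.1, 28.8, 36.9 and 122 CPM in TAK-243 tumors (log2 fold change 0.43, 95% interval -0.54 to 1.40). Ppp1r15a ranged from 23.6 to 42.8 CPM with a median of 29.7 CPM against 21.3, 22.0, 24.9, 33.0 and 52.6 CPM (0.03, 95% interval -0.43 to 0.49). The log2 fold changes of the other members were between -0.39 (Asns) and -0.09 (Sesn2), with Chac1 at -0.34, Ddit4 at -0.18, Atf4 at -0.17 and Trib3 at -0.15. The upper ends of the intervals of Ddit3, Atf3 and Ppp1r15a lie below the rises measured in cultured cells, but dose, schedule and cell makeup differ between the settings and cannot be told apart. The myeloid marker sum was 215 to 339 TPM with vehicle and 314 to 593 TPM with TAK-243, and its part in these values was not tested.

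**Figure D5:**
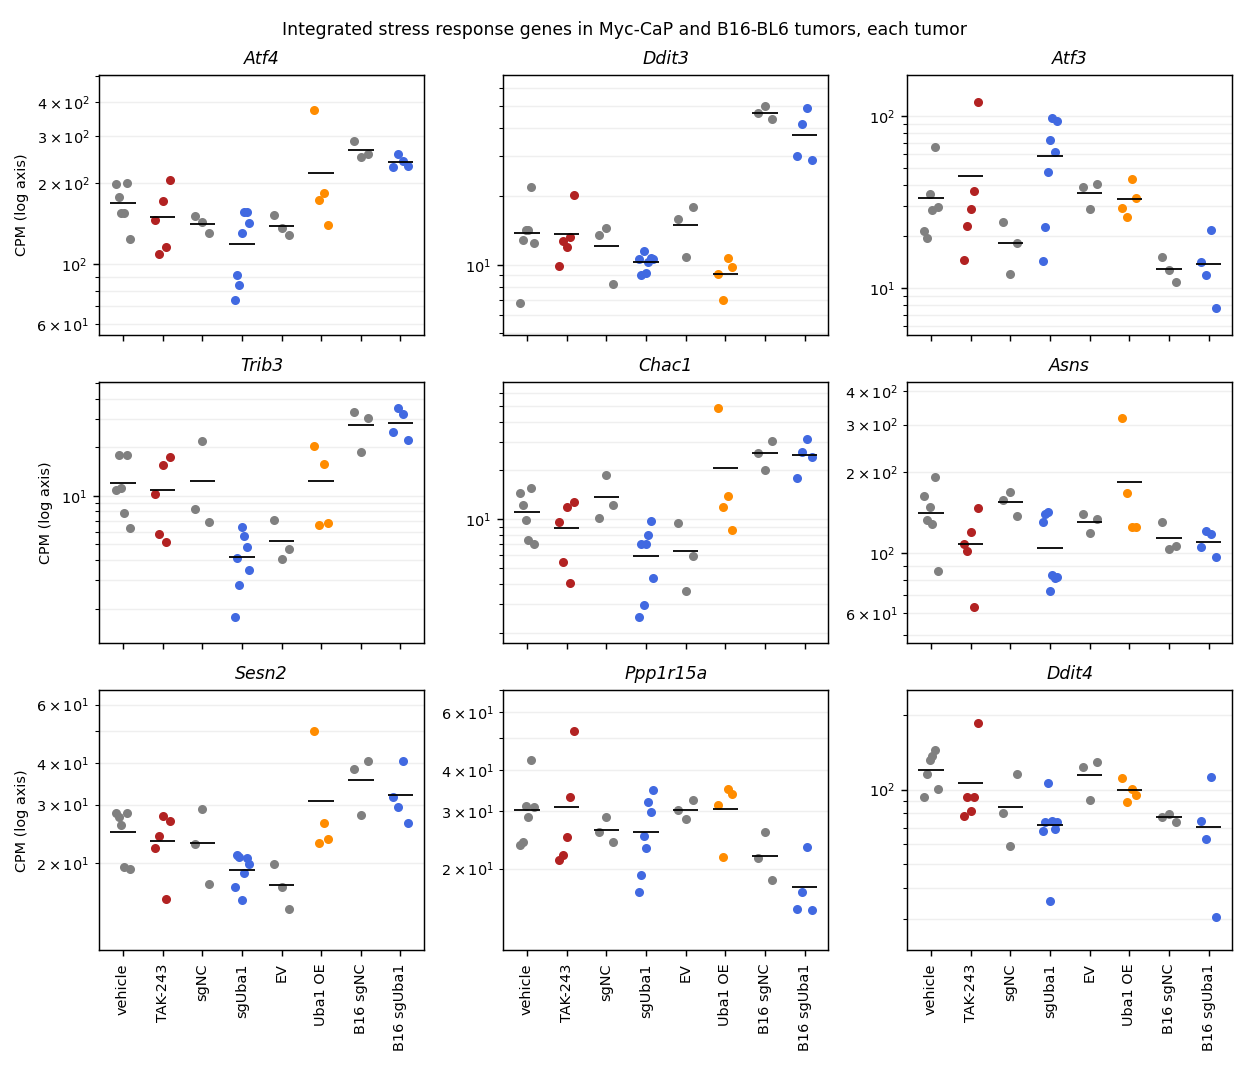
Level of each of the 9 genes in the 35 tumors, in CPM on a log axis, with 1 point per tumor and a bar at the group mean (grey, controls; red, TAK-243; blue, sgUba1; orange, Uba1 OE). Treated and control tumors overlap for most genes, single tumors stand high (Uba1 OE tumor 1 at 374 CPM for Atf4, TAK-243 tumor 5 at 122 CPM for Atf3), and 3 sgUba1 Myc-CaP tumors are low for Atf4.

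Across all groups, levels per transcript length (TPM) lay differently in cells and tumors. Ddit3 ran from 4.005 to 7.56 TPM in the 12 cell libraries without TAK-243, from 63.3 to 69.2 TPM in the 4 with TAK-243 and from 15.98 to 105 TPM in the 35 tumors. Ddit4 ran from 10.1 to 28.4 TPM, from 25.2 to 27.5 TPM and from 29.0 to 167 TPM in the same sets. These were the 2 genes whose tumor values all lay above all cell values without TAK-243, and the other 7 overlapped. The share of all genes separated in this way was not counted, so these 2 are not set apart from other genes. Atf3 reached 7.88 TPM at most in cells without TAK-243, 57.0 to 64.7 TPM with it, and 6.33 to 95.3 TPM in tumors. Ppp1r15a was above all tumors (10.3 to 33.8 TPM) with TAK-243 in cells (93.2 to 115 TPM). Cells and tumors were sequenced in separate experiments, so their levels are set side by side with no test.

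Ordered by their mean TPM over the 16 groups, the 9 genes differed in how far groups separated. For Ddit3 the highest groups were B16-BL6 sgNC and sgUba1 tumors (99.8 and 83.3 TPM), then the cell groups with TAK-243, then the Myc-CaP tumors (21.1 to 35.4 TPM) and last the other cell groups (4.37 to 7.25 TPM), and 4 of the 15 pairs of neighbours in this order did not overlap. For Atf3 the cells with TAK-243 stood first (63.4 and 58.8 TPM), and 5 of 15 neighbouring pairs were apart. The order of Ddit4 began with vehicle tumors (115 TPM) and ended with sgUba1 cells (10.3 TPM), with 6 pairs apart. Trib3 had 4 pairs apart, Sesn2 3, Asns 2 and Ppp1r15a 2. For Atf4 and Chac1 no neighbours were apart, and the top and bottom groups differed 2.33-fold for Atf4, the smallest span of the 9 genes, against 22.8-fold for Ddit3.

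Last, likeness in level is given as a description. Each gene was centred on the mean of its experiment, which leaves the group differences in, and libraries of an experiment share their scaling. Over the 35 tumors, the closest pairs among the 9 were Trib3 and Chac1 (Pearson r 0.89) and Atf4 and Chac1 (0.85), while Atf3 and Asns were lowest (-0.29). Among the genes outside the 9 whose centred level was most like the mean of the 9 were Rcor2, Rlf, Bcar1 and Sbf2 in the tumors (0.82 to 0.83, of 12620 genes). In the 16 cell libraries they were Csnk1e, Med19, Fosl1, Lxn and Rangap1 (0.98 to 0.99, of 11160 genes), where the 4 TAK-243 libraries lie apart from the other 12, so that such an r mainly compares these clusters. The correlation of each of the 9 with that mean, of which it is itself a part, ran from 0.42 (Ddit3) to 0.82 (Atf4) in the tumors, and Asns opposed it in the cells (-0.79).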

How the data were processed

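RNA was sequenced in bulk from the 51 libraries, in 6 experiments that were each fitted with their own controls. The submitters' processing notes name kallisto (version not given in the sources used here) and mm10, and the authors deposited expected counts per gene and TPM values per gene. The labels describe poly-A selection with the KAPA RNA HyperPrep kit, and the study's methods name a ribosomal RNA depletion kit. Depth was 8652097 to 38032395 expected counts per library, and the low counts of Ddit3 (30 in each untreated cell library) limit the precision of its values there. The deposited expected counts were rounded to whole numbers and analysed with edgeR 4.0.16 in R 4.3.3 (filterByExpr, TMM, robust quasi-likelihood fit, Benjamini-Hochberg adjustment over all genes tested, threshold 0.05, no replicate block). Cell experiments shared 1 estimate of spread over their groups. The TPM values were used for levels and marker sums only, with no test.

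Alternatives were DESeq2 1.42.0, RLE size factors, no filter on low counts, only the compared groups in the fit, the replicate number as a block and each library left out in turn. Leaving out sgUba1 tumors 4 to 7 was chosen after their values were seen. The main edgeR fit and the DESeq2 fit were tested on simulated counts. This was done for TAK-243 against untreated cells, sgUba1 against sgNC Myc-CaP tumors and TAK-243 against vehicle tumors. The other comparisons, the interactions and the other alternatives were not simulated. Python 3.11.15, pandas 2.3.3 and matplotlib 3.10.9 made the summaries and figures.

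The 9 genes and all lists were chosen with earlier results of these data known. By the rule for named genes, all 9 were tested in every comparison, Uba1 is the check of the labels, and of each list up to 3 called genes with the largest rise and 3 with the largest fall may be named per comparison. Likeness took the 5 genes with the highest Pearson r, among genes with a mean log2 CPM of at least 1, of which 1 in the tumors is not reported here.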

Additional observations from a re-analysis of the deposited data

Results flagged for a closer look

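Of 45 combinations of a gene with a tumor group of 4 to 10 tumors, 5 held 1 tumor farther from the rest than Dixon's test allows at 95%, where chance alone gives about 1 in 20. Atf3 was 65.9 CPM in vehicle tumor 5, against 19.7 to 35.3 CPM in the other 5. In TAK-243 tumor 5, Atf3 was 121.8 CPM (others 14.6 to 36.9) and Ddit4 was 185.0 CPM (others 78.0 to 93.4). In Uba1 OE tumor 1, Chac1 was 48.28 CPM (others 8.57 to 14.0) and Sesn2 was 49.96 CPM (others 22.9 to 26.4).

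The sgUba1 effect on Ddit4 in cultured cells differed with IFN-γ by 0.82 on the log2 scale, by the interaction test. For 4 genes the IFN-γ effect in cells without TAK-243 or sgUba1 had opposite signs in the 2 cell experiments. In CPM every library of a group lay on its side of the control. In TPM the untreated and IFN-γ libraries of the inhibitor experiment overlapped for Ddit3 (4.10 to 4.93 and 4.57 to 6.18). They also overlapped for Chac1 (14.8 to 16.1 and 15.1 to 15.9) and Ddit4 (24.4 to 27.2 and 26.5 to 28.4). Of the 4 genes only Trib3 stayed apart there (7.02 to 7.82 and 7.89 to 9.95). The log2 fold changes in the inhibitor and the sgRNA experiment were 0.46 and -0.29 for Ddit3, 0.49 and -0.30 for Trib3, 0.23 and -0.13 for Chac1, and 0.32 and -0.41 for Ddit4. By the edgeR test, Ddit4 was called in both experiments, Trib3 in the inhibitor experiment only, and Ddit3 and Chac1 in neither. Each group held 2 libraries, and the share of all genes with such a split was not counted. The difference between the experiments was not tested.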

How the results depend on the processing

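No called value of the 9 genes changed direction in any alternative. TPM was not among these alternatives, and in mean TPM Atf4 and Asns were lower with IFN-γ than untreated in the inhibitor experiment. Of 1035 values with 1 library left out, 953 kept their side of the threshold and direction, 28 lost their call, 3 gained one, and 51 that were not called crossed 0; a lone remaining library is then assumed to vary like the other groups. With RLE size factors 117 of 117 values were unchanged in call and direction, with DESeq2 109, with no filter 115 and with the replicate block 112. With only the compared groups in the fit, 52 of 54 were. By the rule that every pair exceed 0.1, the replicate numbers do not pair the libraries: deviations of same-numbered libraries correlated at -0.02 to 0.07 in cells (0 of 12 values over 0.1), but over 0.1 in 2 of 3 pairs in B16-BL6 tumors (0.155 and 0.164, the other -0.05), 1 of 5 in TAK-243 tumors (0.31) and 0 of 6 in the other tumors. With the block, 1 of the 9 genes (Ddit3, -0.49, adjusted p = 0.044) was called in B16-BL6 tumors.

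Counts over all genes depended more on the processing. In B16-BL6 tumors 157 genes were called, with DESeq2 528 and with no filter 270. In Myc-CaP sgRNA tumors 485 were, with DESeq2 1804 (3 of the 9 genes), with no filter 322, with the block 0 and without sgUba1 tumors 4 to 7 1. In Uba1 OE tumors the count of 1 became 706 with DESeq2, 7 with no filter and 0 with the block. In TAK-243 tumors 25 became 542 with DESeq2 and 3 with the block. In cells, DESeq2 gave 2409 in place of 4364 for IFN-γ, 217 in place of 448 for the TAK-243 by IFN-γ interaction and 640 in place of 961 for the sgUba1 by IFN-γ interaction, which rose to 1505 with no filter (2 of the 9 genes in place of 1). For IFN-γ in NC cells 823 became 496 with RLE, 379 with DESeq2, 1524 with no filter and 44 with only the compared groups (0 of the 9 genes in place of 1).

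With 1 library left out, counts ran from 64 to 465 in B16-BL6 tumors (465 without sgUba1 tumor 4), 10 to 686 in sgRNA tumors (10 without sgNC tumor 2), 0 to 373 in Uba1 OE tumors (373 without Uba1 OE tumor 1) and 0 to 297 in TAK-243 tumors (297 without TAK-243 tumor 5). They ran from 3136 to 5857 for sgUba1 against NC cells, 3015 to 4458 for IFN-γ (3 to 5 of the 9 genes), 103 to 474 for the TAK-243 interaction, 26 to 2960 for the sgUba1 interaction and 48 to 3056 for IFN-γ in NC cells (each 0 to 2 of the 9 genes for the last 2). The causes of these shifts were not tested.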
